A study of Mus musculus with 22 samples.

Results

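The insulin-like growth factor (IGF) genes were followed through sorted cells of mouse breast tumors. The 10 genes were taken by symbol, of 41388 genes counted: the ligands Igf1 and Igf2, the receptors Igf1r and Igf2r, and the binding protein genes Igfbp2 to Igfbp7. IGF ligands are secreted growth factors that act through the tyrosine kinase receptor encoded by Igf1r. Igf2r encodes a receptor that clears IGF2 and carries lysosomal enzymes, and the binding proteins are secreted carriers that hold the ligands in the extracellular fluid and are cut by proteases that set them free. In connective tissue the ligands and carriers are products of mesenchymal cells, and macrophages are a further known source of IGF1.

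RNA was sequenced from 22 libraries of C57BL/6 mice. All mice carried Osx-cre, a Cre recombinase driven by a Sp7 promoter through a doxycycline-repressible tTA switch, and the Ai9 reporter, so that cells with a history of Osx-cre activity are marked by TdTomato. The paper states that Osx-cre reporter mice fed doxycycline until weaning served in all studies after its first tumor experiments. Wild type (WT) mice were Osx-cre;Ai9 and the others were Cdh2-cKO;Ai9, in which Cre is meant to delete Cdh2, the gene of N-cadherin. Tumors of GFP-marked mammary carcinoma cells grew for 2 weeks from postnatal day 56, the tumor cells were separated by GFP, and the remaining cells were sorted by TdTomato and by CD45, the surface protein of leukocytes encoded by Ptprc. The labels call the tumors orthotopic and the study's design text calls them subcutaneous. The TdTOSX single positive population (TdTomato+, CD45-) had 2 WT and 2 Cdh2-cKO libraries. The double positive, CD45 single positive and double negative populations had 3 of each genotype. The labels do not tie libraries to animals, and the 4 populations came from the same set of mice, so p-values measure the spread between these libraries.

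The libraries held 16594228 to 26784003 counts, with a median of 18977040. Cdh2 went against its label: levels in TdTOSX single positive cells were 17.2 and 13.1 counts scaled to library size by TMM (CPM) in the libraries labelled Cdh2-cKO and 9.13 and 5.19 CPM in WT, a log2 fold change of 1.08 (SE 0.84, edgeR adjusted p = 0.668). The count covers the whole gene, and it did not check which cells had lost a floxed exon. Genotype directions are therefore given for libraries labelled Cdh2-cKO. Of the marker lists, all 6 pan-leukocyte genes were lower and all 8 fibroblast genes higher in CD45- populations. Of the 5 epithelial tumor cell genes tested, 3 were higher and 2 lower there. The summed level of the epithelial list had a median of 930 CPM and a highest value of 1989 CPM in CD45- libraries. In CD45+ libraries these were 276 and 470 CPM. The part of remaining tumor cells in the IGF values was not tested. Sp7 itself had 3 counts in all libraries together. A pair of libraries stood apart. Double negative WT replicate 3 had a summed pan-leukocyte level of 6610 CPM, against 190 and 987 CPM in the other WT double negative libraries and 11241 to 13650 CPM in CD45+ libraries. CD45 single positive WT replicate 2 had B cell and T and NK cell sums of 3474 and 3065 CPM, where the medians of the 12 CD45+ libraries were 9.55 and 79.8 CPM. TdTOSX single positive libraries also held pan-leukocyte signal, at 4542 and 2031 CPM in Cdh2-cKO and 219 and 1810 CPM in WT. Calls were also made without double negative WT replicate 3 and CD45 single positive WT replicate 2, with the TdTOSX single positive libraries kept. A changed call is given beside its result.

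For reference, the 250 bases before the RefSeq start (GRCm38.p6) are printed 5′ to 3′ for some members. They are the 3 binding protein genes with the largest difference between CD45- and CD45+ cells (Igfbp3, Igfbp5 and Igfbp7), with Igfbp4 and Igf1. Igfbp4 was the leading binding protein gene of CD45+ cells, and both kinds of cell expressed Igf1. Capitals mark matches on either strand to the TATA box (spelled TATAAA and also as TATATA and as TTTAAA), the GC box (spelled GGGCGG) and the CCAAT box (spelled CCAAT). They also mark a loose spelling of the AP-1 site (TGANTCA, with any base at N). The Igf1 window lies inside the longer Ensembl gene model.
Igfbp3, chr11:7213924-7214173, minus strand: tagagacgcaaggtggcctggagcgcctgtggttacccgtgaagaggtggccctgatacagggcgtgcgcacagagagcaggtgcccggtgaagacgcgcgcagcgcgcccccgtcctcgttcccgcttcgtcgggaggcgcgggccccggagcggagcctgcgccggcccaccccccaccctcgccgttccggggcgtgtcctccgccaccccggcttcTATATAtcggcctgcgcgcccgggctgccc
Igfbp5, chr1:72874866-72875115, minus strand: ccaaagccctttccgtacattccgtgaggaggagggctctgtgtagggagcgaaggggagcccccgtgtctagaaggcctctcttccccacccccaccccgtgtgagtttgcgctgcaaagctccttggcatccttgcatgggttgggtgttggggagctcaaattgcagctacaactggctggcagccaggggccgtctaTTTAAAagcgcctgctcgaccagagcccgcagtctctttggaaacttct
Igfbp7, chr5:77408046-77408295, minus strand: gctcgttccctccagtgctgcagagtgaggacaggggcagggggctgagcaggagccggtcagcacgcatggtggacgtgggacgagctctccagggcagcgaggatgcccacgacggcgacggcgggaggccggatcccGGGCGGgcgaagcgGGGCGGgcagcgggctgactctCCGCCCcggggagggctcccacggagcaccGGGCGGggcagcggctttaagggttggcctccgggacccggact
Igfbp4, chr11:99040994-99041243, plus strand: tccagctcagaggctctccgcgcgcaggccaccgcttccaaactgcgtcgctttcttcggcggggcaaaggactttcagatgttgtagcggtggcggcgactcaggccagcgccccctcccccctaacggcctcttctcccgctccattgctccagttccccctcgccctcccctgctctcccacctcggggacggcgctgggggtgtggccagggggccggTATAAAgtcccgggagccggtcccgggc
Igf1, chr10:87860861-87861110, plus strand: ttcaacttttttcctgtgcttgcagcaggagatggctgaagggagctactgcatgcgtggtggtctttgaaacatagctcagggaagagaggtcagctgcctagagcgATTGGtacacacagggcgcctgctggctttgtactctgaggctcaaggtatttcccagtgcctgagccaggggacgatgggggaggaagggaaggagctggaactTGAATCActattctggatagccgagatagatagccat
Igfbp3, Igfbp4 and Igfbp5 each had 1 TATA box match, at positions -30, -28 and -49 from the start, and no GC box match. Igfbp7 had 4 GC box matches and no TATA box match. Igf1 had 1 CCAAT box match and 1 match to the loose AP-1 spelling, with A at the free base. Of all 32851 promoter windows of this length, 24.6% held a TATA box match, 32.7% a GC box match, 33.8% a CCAAT box match and 6.75% a match to the loose AP-1 spelling. The matches of different kinds did not overlap each other in any member. These are matches of letters, and binding was not measured.

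The binding protein genes led the family in CD45- cells, and Igf1 and Igfbp4 led it in CD45+ cells. Levels between genes are compared as CPM per kilobase of exon (RPKM). In the 10 CD45- libraries the median level was 63.6 RPKM for Igfbp7, 42.8 for Igfbp6, 37.7 for Igfbp4 and 36.5 for Igfbp3. Igf1 followed at 12.9, Igf2r at 11.3, Igfbp5 at 9.74 and Igf1r at 6.24 RPKM. In the 12 CD45+ libraries Igfbp4 had a median of 9.95 RPKM and Igf1 7.05 RPKM, and Igfbp6, Igf1r and Igf2r had 4.59, 2.26 and 2.14 RPKM. Igfbp7, Igfbp3 and Igfbp5 were at 0.420, 0.340 and 0.0498 RPKM there. The plot of members by library shows that the 4 populations fell into a CD45- and a CD45+ pair, and that within each pair the ranges of neighbouring populations overlapped for every tested member.

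**Figure D1:**
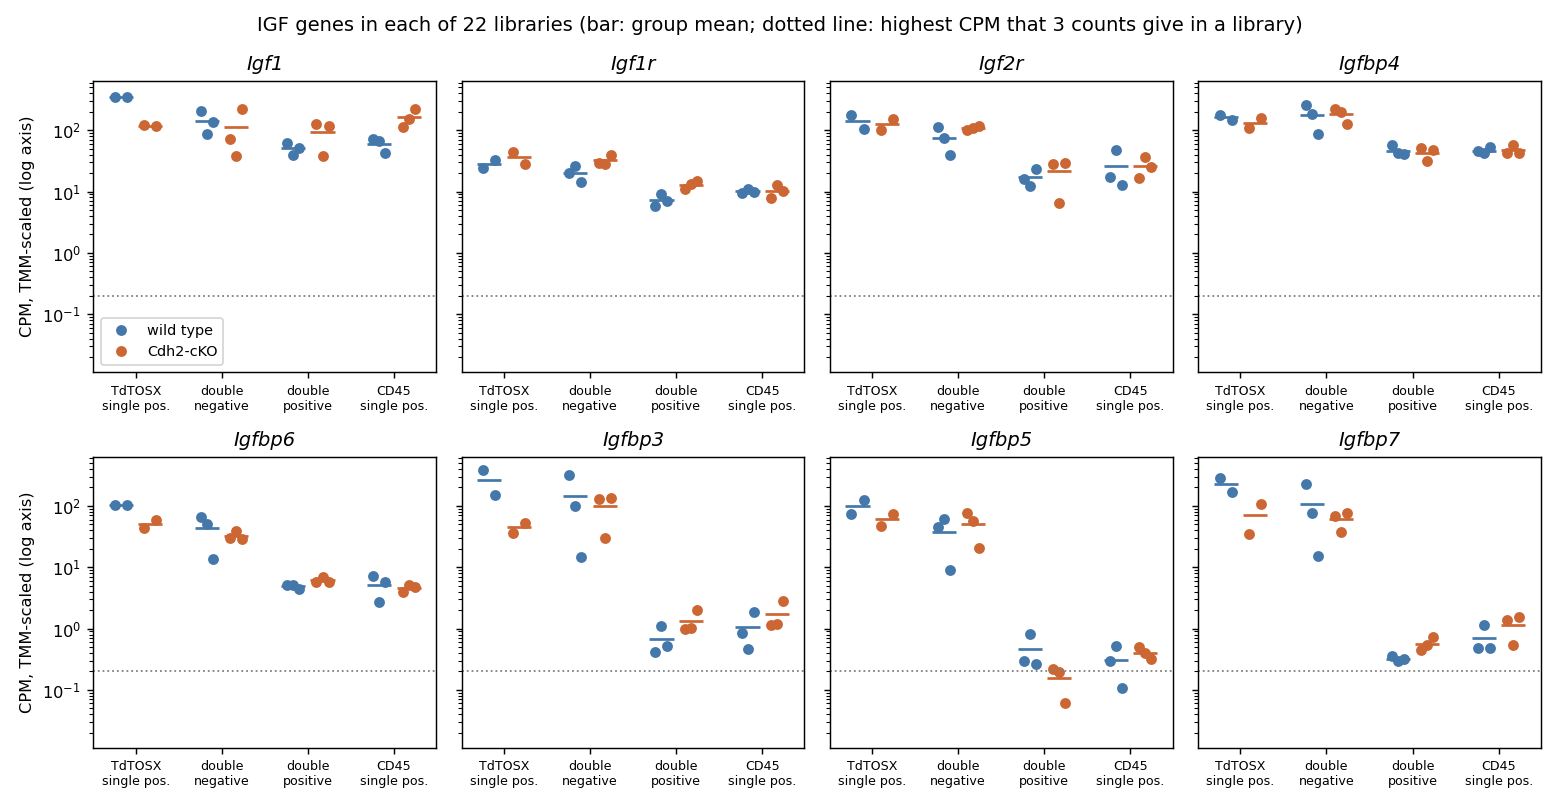
Level of the 8 tested IGF genes in each of 22 libraries, as CPM on a log axis, by sorted population. Points are libraries, blue for wild type and orange for Cdh2-cKO, bars are group means and the dotted line is the highest CPM that 3 counts gave in any library (0.201 CPM). Igfbp3, Igfbp5 and Igfbp7 separate CD45- from CD45+ libraries most widely, and Igf1 overlaps between them.

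To ask which cells of the tumor carried the IGF genes, CD45- populations were compared with CD45+ populations over both genotypes. Of the 10 members 8 passed the filter on low counts, and all 8 were higher in CD45- cells at an adjusted p of at most 0.05, where 31.1% of the 15018 genes tested were called higher. The libraries did not overlap for 5 of them (Igfbp3, Igfbp4, Igfbp5, Igfbp6 and Igfbp7), where 11% of genes were higher without overlap. Igfbp5 passed the filter only through CD45- libraries, so its difference was built into the choice of genes tested. The median log2 fold change of the 8 was 2.83, beside -0.06 over all genes tested. In bulk samples fewer cells of a type and less RNA per cell cannot be told apart.

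Igfbp5, a binding protein gene of fibroblasts and osteoblasts that is also bound to matrix, had 8.87 CPM in the lowest, 58.5 in the median and 124 in the highest CD45- library. CD45+ libraries had 0.0601, 0.299 and 0.819 CPM by the same measures, and 2 of these 12 libraries held fewer than 3 counts. The highest CD45+ library thus stayed below the lowest CD45- library, and the log2 fold change was 7.53 (SE 0.40, adjusted p = 1.26e-10). As Igfbp5 passed the filter only through CD45- libraries, this p-value is not a test of its direction. Igfbp7, which encodes a low-affinity binding protein deposited around vessels, had 15.1, 77.1 and 284 CPM in CD45- libraries and 0.292, 0.509 and 1.54 CPM in CD45+ libraries. Its log2 fold change was 7.33 (SE 0.44, adjusted p = 3.57e-10). Igfbp3, the gene of the main carrier of IGFs in blood, had 14.7, 114 and 386 CPM in CD45- libraries and 0.416, 1.07 and 2.82 CPM in CD45+ libraries. Its log2 fold change was 6.64 (SE 0.50, adjusted p = 6.1e-09). For all 3 genes the lowest CD45- library was double negative WT replicate 3, the one with the highest leukocyte sum. Without it the log2 fold changes were 7.72 for Igfbp5, 7.54 for Igfbp7 and 6.85 for Igfbp3.

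Igfbp6, whose product prefers IGF2, had 13.6, 47.6 and 104 CPM in the lowest, median and highest CD45- libraries and 2.69, 5.10 and 7.10 CPM in CD45+ libraries. The log2 fold change was 3.35 (SE 0.22, adjusted p = 1.33e-09). Igfbp4, whose product is cut by the protease PAPP-A, had 88.2, 167 and 254 CPM in CD45- libraries and 31.5, 44.0 and 58.2 CPM in CD45+ libraries. It was thus well expressed on both sides, with a log2 fold change of 1.81 (SE 0.17, adjusted p = 6.74e-08).

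Both receptor genes were higher in CD45- cells by smaller steps. Igf2r had 39.98, 107 and 179 CPM in the lowest, median and highest CD45- libraries and 6.60, 20.2 and 47.2 CPM in CD45+ libraries, a log2 fold change of 2.31 (SE 0.29, adjusted p = 2.74e-06). Strandedness is not given in the sources, so it was not checked whether reads of the antisense neighbour Airn were counted with Igf2r. Igf1r had 14.3, 27.998 and 43.9 CPM in CD45- libraries and 5.76, 10.1 and 14.6 CPM in CD45+ libraries, a log2 fold change of 1.51 (SE 0.14, adjusted p = 7.82e-08). The 2 sides overlapped for both genes. The one Igf1r value below the highest CD45+ library was again double negative WT replicate 3.

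Igf1 was the member that CD45+ cells expressed most nearly at the level of CD45- cells. It had 37.6, 128 and 354 CPM in the lowest, median and highest CD45- libraries and 37.8, 69.8 and 218 CPM in CD45+ libraries. The log2 fold change over both genotypes was 0.96 (SE 0.28, adjusted p = 0.00571), the smallest of the 8. Over the alternatives tried its adjusted p ran from 0.000619 to 0.0455.

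Igf2, the second ligand, and Igfbp2 were at the edge of detection and were not tested. Igf2 had 97 counts over the 10 CD45- libraries, with 0.165 to 1.0025 CPM, and 7 counts over the 12 CD45+ libraries, none of which held more than 3 counts. The lowest CD45- library and the highest CD45+ library held 3 counts each. In TdTOSX single positive cells it had 19 and 22 counts in libraries labelled Cdh2-cKO and 9 and 7 in WT. Igfbp2 had 53 counts over CD45- libraries, all in 4 of them, and 4 counts in 1 CD45+ library. For depth, 3 counts were 0.103 to 0.201 CPM, so a level below that was not detectable.

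The make-up of the binding protein pool differed between the 2 kinds of cell. Summed over Igfbp3 to Igfbp7, the level was 50.8 to 504 RPKM in CD45- libraries (median 190.5) and 13.1 to 18.6 RPKM in CD45+ libraries (median 16.5). Igfbp7 held 23.8% to 46.5% of that sum in CD45- libraries and 1.63% to 7.89% in CD45+ libraries. Igfbp4 held 7.95% to 39.3% in CD45- libraries and 50.1% to 72.5% in CD45+ libraries, and neither gene's ranges overlapped. The gene with the largest share was Igfbp4 in 12 of 12 CD45+ libraries. In CD45- libraries it was Igfbp7 in 7, Igfbp4 in 2 (double negative WT replicate 3 and Cdh2-cKO replicate 2) and Igfbp6 in 1 (TdTOSX single positive Cdh2-cKO replicate 1). The ratio of summed binding protein RPKM to Igf1 RPKM was 3.71 to 34.05 in CD45- libraries (median 15.9) and 0.729 to 4.21 in CD45+ libraries (median 2.15). The size of these ratios, and of the shares, depends on the exonic lengths. The lowest CD45- ratio, 3.71, was that of double negative WT replicate 3, and it was the one CD45- value within the CD45+ range.

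**Figure D2:**
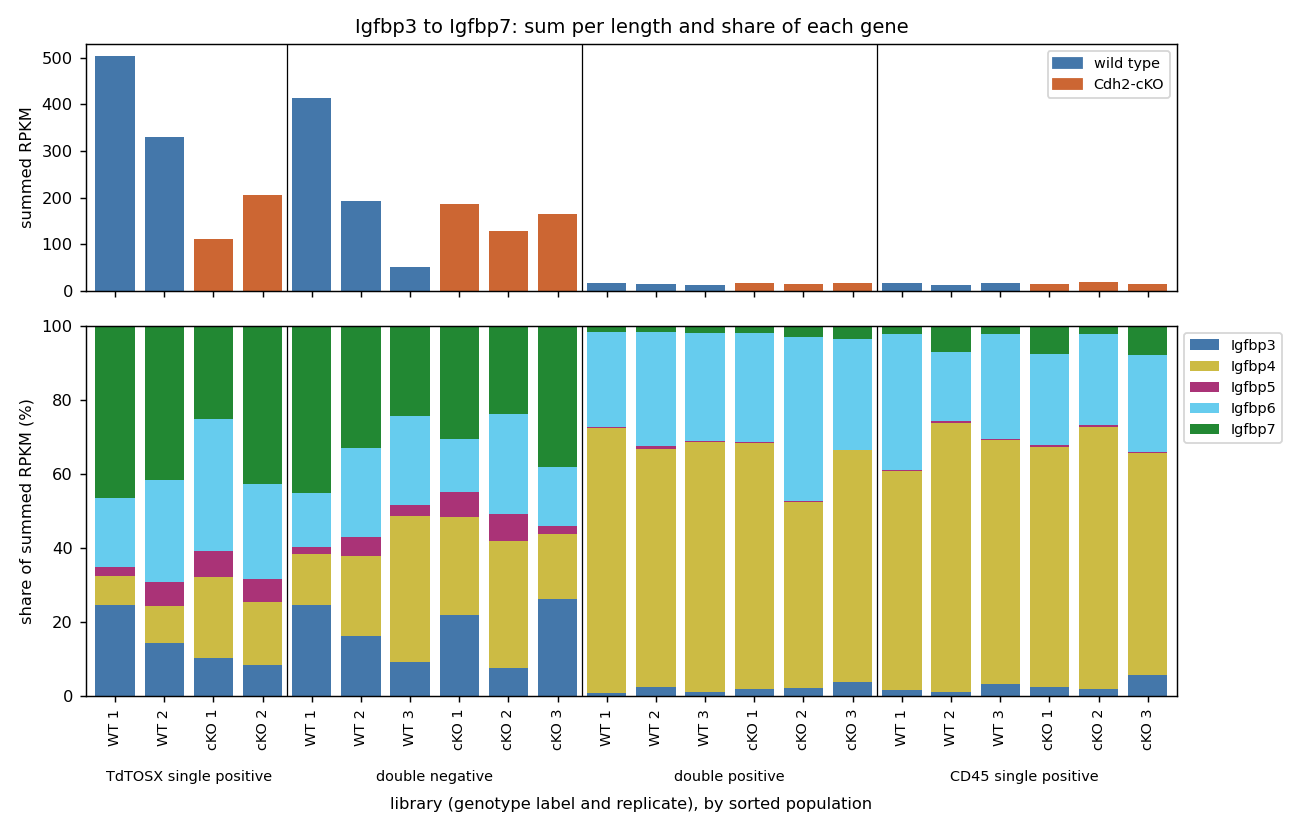
Summed RPKM of Igfbp3 to Igfbp7 in each library (top, bars from 0) and the percent of that sum from each gene (bottom), by sorted population, genotype label and replicate. CD45- libraries sum to between 50.8 and 504 RPKM and CD45+ libraries to between 13.1 and 18.6 RPKM, where Igfbp4 takes the largest share in every CD45+ library.

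The comparison was then made within each genotype label. Igfbp5 is in each count of members given here, though its direction was built into the choice of genes tested. In WT all 8 tested members were higher in CD45- cells (25.7% of genes were called higher), 7 of them without overlap (14.2% of genes). In libraries labelled Cdh2-cKO 7 were higher (27.1% of genes), all 7 without overlap (21.5% of genes). Igf1 was the member not called there. In WT its levels were 344 and 354 CPM in TdTOSX single positive and 203, 86.3 and 136 CPM in double negative libraries. They were 62.1, 38.9 and 51.2 CPM in double positive and 72.6, 67.0 and 42.4 CPM in CD45 single positive libraries. Every WT CD45- library thus lay above every WT CD45+ library, and the log2 fold change was 2.00 (SE 0.40, adjusted p = 0.000566).

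In the libraries labelled Cdh2-cKO Igf1 had 120.5 and 117 CPM in TdTOSX single positive and 73.1, 37.6 and 225 CPM in double negative cells. It had 125, 37.8 and 116 CPM in double positive and 112, 154 and 218 CPM in CD45 single positive cells. The 2 sides overlapped through most of their range, and the log2 fold change was -0.09 (SE 0.39, adjusted p = 0.871). The difference between the 2 genotypes in this log2 fold change was -2.09 (SE 0.56, edgeR adjusted p = 0.531). For Igfbp3 the WT value was 7.84 (SE 0.75) and the Cdh2-cKO value 5.44 (SE 0.67), a difference of -2.41 (SE 0.89, edgeR adjusted p = 0.601). For Igfbp7 they were 8.33 (SE 0.65) and 6.33 (SE 0.59), a difference of -1.99 (SE 0.78, edgeR adjusted p = 0.604). With edgeR 0% of genes, and no member, passed the adjusted threshold for this difference, while 3 of the 8 members and 7.7% of genes had an unadjusted p under 0.05. DESeq2 and limma also called no member. Leaving out double negative WT replicate 1 moved the WT values of Igfbp3 and Igfbp7 to 7.18 and 7.73, and the differences between genotypes to -1.74 and -1.40. Leaving out both libraries that stand apart moved the WT value of Igfbp5 from 7.34 to 7.93. The WT values kept an adjusted p below 0.05.

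**Figure D3:**
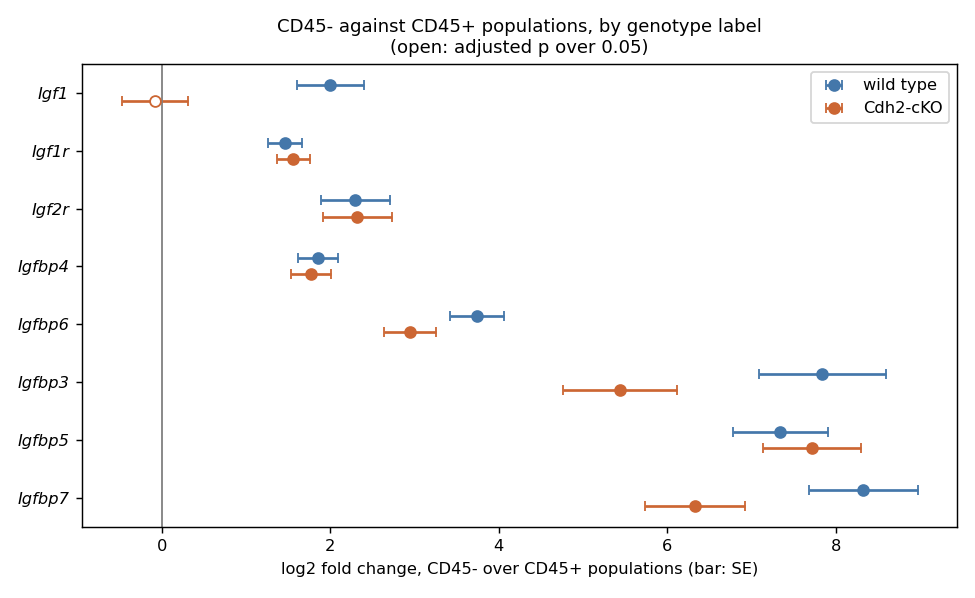
Log2 fold change of CD45- over CD45+ populations for the 8 tested IGF genes, in wild type (blue) and in libraries labelled Cdh2-cKO (orange), with SE bars from the edgeR fit. The open point, Igf1 in Cdh2-cKO at -0.09, is the one value with an adjusted p over 0.05.

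Next, cells marked by Osx-cre were compared with unmarked cells. Within CD45- cells no member passed the adjusted threshold between TdTOSX single positive and double negative populations (edgeR, 1.89% of genes called). Igfbp6 came closest. It had 104 and 102 CPM in WT and 43.9 and 58.7 CPM in Cdh2-cKO TdTOSX single positive libraries, and double negative libraries had a lowest value of 13.6, a median of 34.4 and a highest of 66.5 CPM. The ranges overlapped, and the log2 fold change was 0.95 (SE 0.31, edgeR adjusted p = 0.11). Igfbp6 was the one member with an unadjusted p under 0.05, where 19% of genes had one. Without both libraries that stand apart it passed the threshold (0.73, adjusted p = 0.00699), as it did with limma's quality weights (0.89, adjusted p = 0.0366) and without double negative WT replicate 1 (1.16, adjusted p = 0.046). DESeq2 called no member.

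TdTOSX single positive and double negative libraries of the same genotype and replicate number had correlated deviations from their group means (r = 0.113 to 0.593). With 2 TdTOSX single positive libraries per genotype those deviations mirror each other, so the 4 values are not independent. Such pairs of TdTOSX single positive and double positive libraries had r = 0.097 to 0.154. TdTOSX single positive and double negative libraries were also compared as 4 pairs, an alternative chosen after the data were seen. Igf1 was higher in TdTOSX single positive cells in 4 of 4 pairs, with a log2 fold change of 1.21 (SE 0.25, edgeR adjusted p = 0.0449). It was the one member called, where 741 of 14071 genes were called. The share of all genes with the same direction in 4 of 4 pairs was not counted. Igfbp6 was also higher in 4 of 4 pairs (0.62, SE 0.14, edgeR adjusted p = 0.0527). Igfbp4 was lower in 4 of 4 pairs (-0.625, SE 0.16, edgeR adjusted p = 0.0659). Replicate 3 of the double negative cells had no partner in either genotype and was left out. For Igf1 its Cdh2-cKO library had 225 CPM, above both Cdh2-cKO TdTOSX single positive libraries (120.5 and 117 CPM). Its WT library had 136 CPM, below both WT ones (344 and 354 CPM). In unpaired fits without 1 library the Igf1 value ran from 0.487 to 1.203. Whether the pairing or the libraries left out moved the paired value was not tested.

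Without pairing, the other members had log2 fold changes from -0.28 (Igfbp4) to 0.83 (Igfbp5) between TdTOSX single positive and double negative cells. For Igf1 the unpaired value was 0.69 (SE 0.41, edgeR adjusted p = 0.363), and for Igfbp7 0.65 (SE 0.49, edgeR adjusted p = 0.492). The fibroblast marker sum moved the same way as Igfbp6, from 5075 to 35947 CPM in double negative and from 15452 to 66260 CPM in TdTOSX single positive libraries, and its part in the values was not tested. Within CD45+ cells no member was called between double positive and CD45 single positive cells, where 0.00666% of genes (1 gene) were called. No member had an unadjusted p under 0.05 there (4.06% of genes), DESeq2 and limma called none, and the log2 fold changes ran from -1.07 (Igfbp7) to 0.17 (Igfbp6).

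The last question was whether the Cdh2-cKO label moved the IGF genes within a population. No member was called in any of the 4 populations by edgeR, DESeq2 or limma. In TdTOSX single positive cells 0.00666% of genes (1 gene) were called by edgeR, and in each of the other populations 0%. At an unadjusted p under 0.05 there were 3 members in TdTOSX single positive cells (10.5% of genes) and 1 in each of the double negative (9.6%), double positive (3.43%) and CD45 single positive (9.81%) populations.

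In TdTOSX single positive cells 5 members were lower in both libraries labelled Cdh2-cKO than in both WT libraries, as were 20.7% of genes: Igf1, Igfbp3, Igfbp5, Igfbp6 and Igfbp7. Igfbp3 had 35.8 and 53.5 CPM against 386 and 149 CPM in WT, a log2 fold change of -2.59 (SE 0.98, edgeR adjusted p = 0.404). Igfbp7 had 34.3 and 107 CPM against 284 and 167 CPM, a log2 fold change of -1.68 (SE 0.79, edgeR adjusted p = 0.475). Igf1 had 120.5 and 117 CPM against 344 and 354 CPM, a log2 fold change of -1.55 (SE 0.65, edgeR adjusted p = 0.439). Leaving out 1 library of these 4 moved the value of Igfbp7 to between -2.72 (without Cdh2-cKO replicate 2) and -1.08 (without Cdh2-cKO replicate 1). It moved that of Igfbp3 to between -3.12 (without WT replicate 2) and -1.745 (without WT replicate 1). The values of Igfbp6 and Igfbp5 were -1.01 (SE 0.49, adjusted p = 0.49) and -0.71 (SE 0.69, adjusted p = 0.739) by edgeR. Other cell types moved with these values. The fibroblast sum was 15452 and 30888 CPM in libraries labelled Cdh2-cKO and 66260 and 35092 CPM in WT. The pericyte and smooth muscle sum was 1118 and 2319 CPM against 4039 and 2828 CPM, and the pan-leukocyte sum 4542 and 2031 CPM against 219 and 1810 CPM. The epithelial tumor cell sum was 934 and 927 CPM in libraries labelled Cdh2-cKO and at most 571 CPM in WT. The part of these cell types in the result was not tested.

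Igf1 also separated the genotypes in CD45 single positive cells, in the other direction. Libraries labelled Cdh2-cKO had 112, 154 and 218 CPM and WT libraries 72.6, 67.0 and 42.4 CPM. The groups did not overlap, as for 4.16% of genes that were higher in this sense, and the log2 fold change was 1.41 (SE 0.53, edgeR adjusted p = 0.43). The macrophage sum was 15279, 14104 and 16199 CPM in the Cdh2-cKO libraries and 13978, 3858 and 17514 CPM in WT. The 3858 CPM were those of WT replicate 2, the library rich in B, T and NK cell markers. The part of these cells in the Igf1 values was not tested.

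Igf1r, the signalling receptor, was higher without overlap in libraries labelled Cdh2-cKO of 2 populations. In double positive cells it had 10.8, 13.2 and 14.6 CPM against 5.76, 9.01 and 7.07 CPM, a log2 fold change of 0.82 (SE 0.27, edgeR adjusted p = 1). In double negative cells it had 29.1, 27.97 and 39.4 CPM against 19.8, 25.8 and 14.3 CPM, a log2 fold change of 0.69 (SE 0.26, edgeR adjusted p = 0.314). The 14.3 CPM were those of WT replicate 3, the library rich in leukocyte markers, and without it the value was 0.52. In double positive cells the macrophage sum was also higher without overlap in libraries labelled Cdh2-cKO (15881, 14075 and 16791 CPM against 12010, 13956 and 13433 CPM), and its part in the values was not tested. Igf1r was the one member higher without overlap in double negative cells (3.87% of genes). In double positive cells Igfbp6 and Igfbp7 were also higher without overlap (6.76% of genes) and Igfbp5 lower (6.05% of genes), but Igfbp5 held 1 to 14 counts and Igfbp7 5 to 12 counts in each of these libraries. The plot of genotype effects shows all 8 tested members in the 4 populations.

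**Figure D4:**
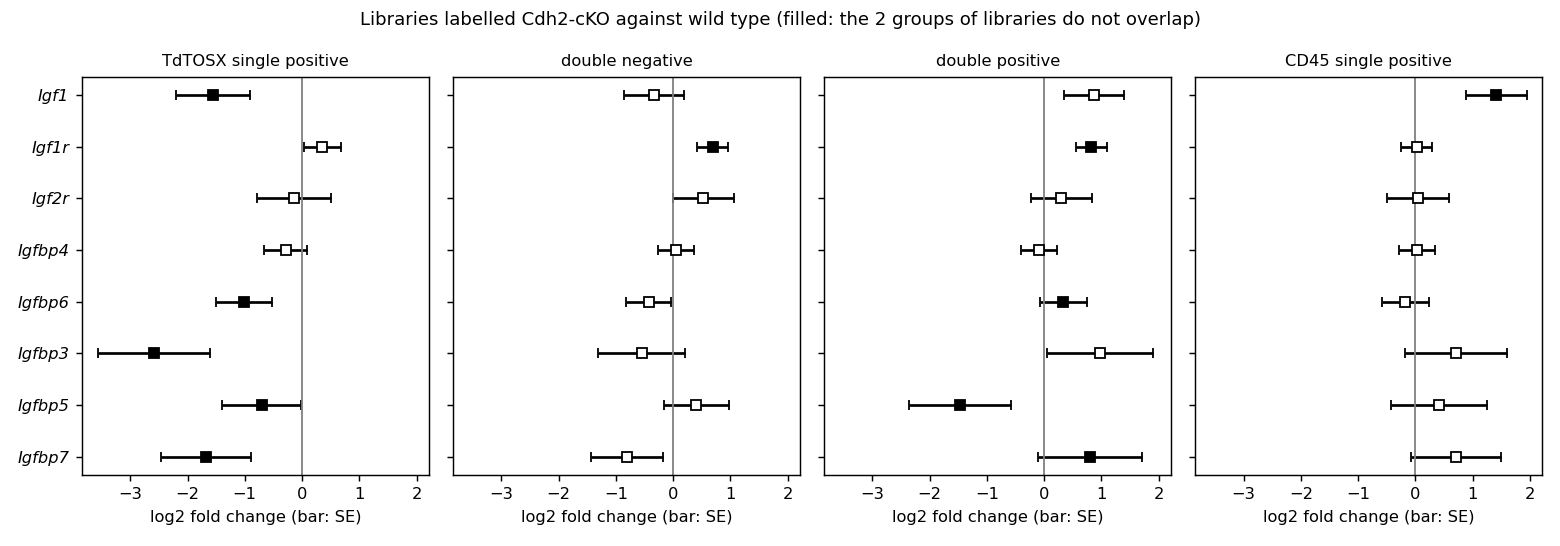
Log2 fold change of libraries labelled Cdh2-cKO over wild type in each sorted population for the 8 tested IGF genes, with SE bars from the edgeR fit. Filled squares mark genes whose 2 groups of libraries do not overlap, which are 5 lower genes in TdTOSX single positive cells, Igf1r higher in double negative and double positive cells, Igfbp6 and Igfbp7 higher and Igfbp5 lower in double positive cells, and Igf1 higher in CD45 single positive cells, all with an adjusted p over 0.05.

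Genes around the ligands and receptors were read from lists of 58 pathway genes, of which 50 passed the filter. Of these 23 were higher and 10 lower in CD45- cells, where 31.1% of all genes tested were called higher and 32.6% lower, and 17 were not called. Pappa, Stc2, Irs1, Grb10 and H19 passed the filter only through CD45- libraries, so their direction was built into the choice of genes tested. The median log2 fold change of the 50 tested pathway genes was 0.07, beside 2.83 for the members. The proteases that cut binding proteins and their inhibitors were higher in CD45- cells for each of the 5 that passed the filter, of 6 in the list, and 2 of these (Pappa and Stc2) could pass only if they were high there. They were the stanniocalcin genes Stc1 (6.33, SE 0.46) and Stc2 (4.71, SE 0.49), inhibitors of pappalysins, and the protease genes Adam12 (6.22, SE 0.38), Htra1 (4.41, SE 0.27) and Pappa (4.24, SE 0.29), whose product PAPP-A cleaves IGFBP4. All these values are log2 fold changes with adjusted p at or below 2.89e-07.

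Of the insulin receptor family and adaptors 4 of 7 were higher and 2 lower. Grb10, an imprinted adaptor gene that restrains the receptors, had a log2 fold change of 6.81 (SE 0.29, edgeR adjusted p = 3.82e-11), the largest in the lists. The docking protein gene Irs1 had 4.88 (SE 0.47, edgeR adjusted p = 1.34e-07). Grb10, Irs1 and H19 passed the filter only through CD45- libraries, so their p-values are not a test of direction. Irs2 was lower, at -0.56 (SE 0.20, edgeR adjusted p = 0.0234). H19, the imprinted RNA next to Igf2, had 5.76 (SE 0.63, edgeR adjusted p = 5.5e-07) and Igf2bp2, an RNA-binding protein gene, 3.02 (SE 0.29, edgeR adjusted p = 9.98e-08). In the growth hormone axis the receptor gene Ghr was higher (3.67, SE 0.32, edgeR adjusted p = 3.02e-08), while 3 of the other 4 genes were lower. The shared signalling genes moved less. Of 18 genes of the PI3K-AKT-FOXO-mTOR list 8 were higher, 2 lower and 8 not called, with a median of 0.07. Of 10 RAS-MAPK genes 2 were higher, 2 lower and 6 not called, with a median of -0.07. Of the other binding proteins 1 of the 2 tested was higher (Crim1) and 1 lower (Kazald1), while Igfbp1, Igfals and Igfbpl1 did not pass the filter.

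Within each genotype the pathway counts were 17 higher and 7 lower in WT, where 25.7% of all genes were called higher and 25.3% lower. In libraries labelled Cdh2-cKO they were 18 higher and 10 lower, where 27.1% were called higher and 23.6% lower. Between TdTOSX single positive and double negative cells 1 of the 50 pathway genes was called, beside 1.89% of all genes. It was Rheb, the activator of mTOR, at a log2 fold change of 1.11 (SE 0.23, edgeR adjusted p = 0.0251). No pathway gene was called by edgeR in the other comparisons of TdTOSX or of genotype.

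**Figure D5:**
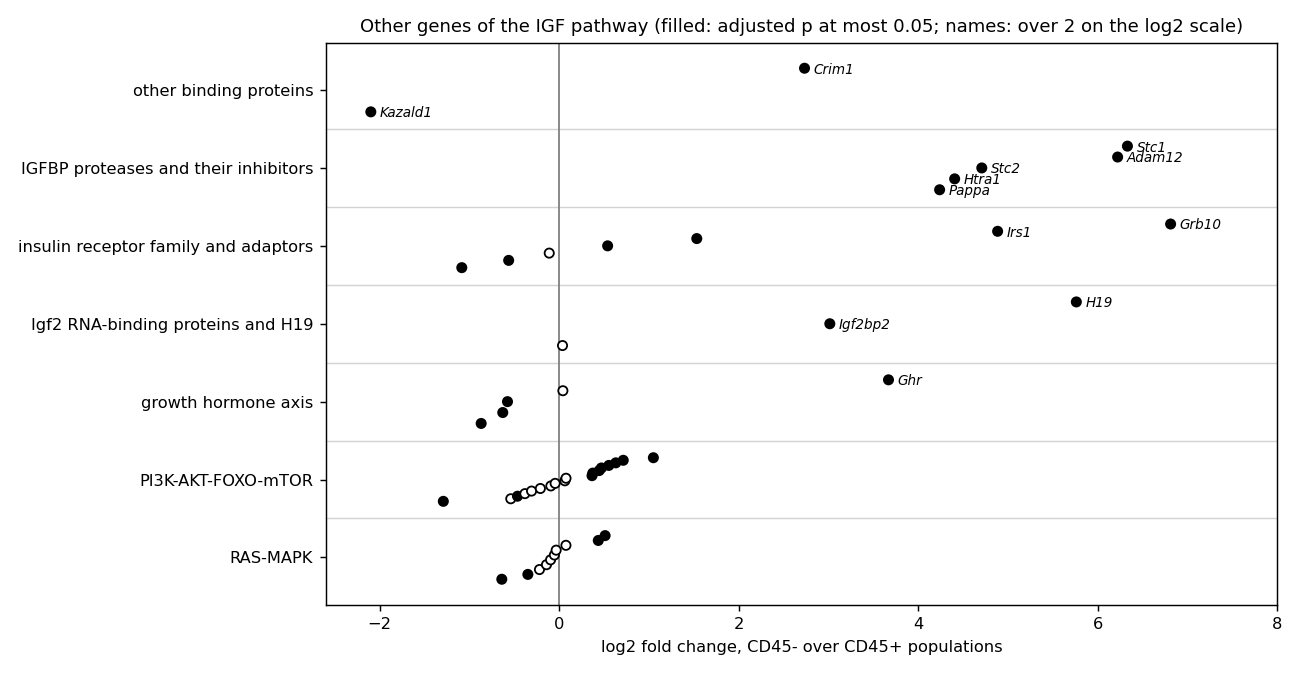
Log2 fold change of CD45- over CD45+ populations for the 50 tested pathway genes outside the 10 members, by list. Filled points have an adjusted p of at most 0.05, and genes beyond 2 in either direction are named. Protease and inhibitor genes lie between 4.24 and 6.33, while the PI3K-AKT-FOXO-mTOR and RAS-MAPK lists lie around 0.

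For each member the genes with the most similar pattern were taken by Pearson correlation of log2 CPM over the 22 libraries, which share 4 populations and so carry the CD45 difference in every value. Igfbp7 was most like the collagen gene Col3a1 (r = 0.994), the microfibril gene Mfap2 (r = 0.993) and the basement membrane gene Nid1 (r = 0.992). Igfbp3 was most like Col4a2 (r = 0.987), Col4a1 (r = 0.986), both genes of basement membrane collagen, and the pericyte gene Rgs5 (r = 0.984). For Igfbp5 they were Mfap5, Ccn3 and Lrrc17 (r = 0.983 to 0.985), for Igfbp6 Ccdc80, Gpx3 and Olfml2b (r = 0.976 to 0.979), and for Igfbp4 Kank2, Nes and Myo10 (r = 0.963 to 0.970). The receptors had Trpc1, Nav3 and Shisa4 for Igf2r (r = 0.959 to 0.967) and Cyb561, Pcdhgc4 and Cyth3 for Igf1r (r = 0.933 to 0.934). Igf1 had the loosest match, with Mcoln2 (r = 0.840), Ptgir (r = 0.814) and Gm6055 (r = 0.811).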

How the data were processed

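RNA was amplified with the SMARTer Ultra Low kit and sequenced as single 50-base reads. Per the labels, the authors aligned reads with STAR 2.0.4b to GRCm38 with Ensembl 76 and counted uniquely aligned, unambiguous reads per gene with featureCounts (version 1.45 in the labels). The deposited values used are these raw counts in each of 22 libraries, and CPM and RPKM were recomputed from them. Strandedness is not given in the sources used here. Genes over 1 CPM in at least 2 libraries were kept and 355 rRNA genes left out, which gave 15018 genes. The 8 groups were fitted in edgeR 4.0.16 (R 4.3.3) with TMM factors and the quasi-likelihood test, and calls needed a p of at most 0.05 after Benjamini-Hochberg adjustment over all genes. The difference of genotype effects used the same fit. Alternatives were limma 3.58.1 voom with quality weights, which the study used, DESeq2 1.42.0, RLE factors, no filter, a replicate block, an added log2 fold change of 2, 1 genotype only and libraries left out. The test was checked on simulated counts. Symbols came from a gene name table, which matched 40254 of 41388 IDs. All 10 members were named, with the pathway genes of largest change and the 3 genes most correlated with each member. All 10 had a RefSeq promoter window. Numbers in the labels did not pair libraries in general. The 4 pairs of TdTOSX single positive and double negative libraries had correlated deviations from the group means (r = 0.113 to 0.593). These 4 values are not independent, since the 2 TdTOSX single positive libraries of a genotype deviate as mirror images. A paired fit of these 8 libraries is given beside that comparison. The members and lists were chosen with earlier results of these data known. Depth was 16594228 to 26784003 counts, and 3 counts were 0.103 to 0.201 CPM, which covers counting error only. Replicates differed by far more than sampling noise, with a chi-square per degree of freedom of at least 51.3.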

Additional observations from a re-analysis of the deposited data

Results flagged for a closer look

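For 3 members every library labelled Cdh2-cKO lay on one side of wild type in one population and on the other side in another. The share of all genes that meet this rule was not counted, so 3 members cannot be set against it. In TdTOSX single positive cells alone 20.7% of genes were lower without overlap. Genes higher without overlap were 4.16% in CD45 single positive and 6.76% in double positive cells. Igf1 was lower in TdTOSX single positive cells (log2 fold change -1.55) and higher in CD45 single positive cells (1.41). The difference between these genotype effects, tested in the same edgeR fit after the pattern was seen, was -2.97 (SE 0.84, edgeR adjusted p = 0.403), and 1 gene of all tested was called for it. Igfbp6 was lower in TdTOSX single positive cells (-1.01) and higher in double positive cells (0.33), a difference of -1.34 (SE 0.64, edgeR adjusted p = 0.711). Igfbp7 was lower in TdTOSX single positive cells (-1.68) and higher in double positive cells (0.80), a difference of -2.47 (SE 1.20, edgeR adjusted p = 0.721), with 5 to 12 counts in each double positive library. The groups of 2 or 3 libraries were too small for a test of single outlying libraries.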

How the results depend on the processing

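The counts of members called between CD45- and CD45+ cells were 8 over both genotypes, 8 in wild type and 7 in Cdh2-cKO in every fit that left out 1 library, with limma, DESeq2, RLE factors, the replicate block and without both libraries that stand apart. These counts include Igfbp5, which passed the filter on low counts only through CD45- libraries. With a log2 fold change of at least 2 required as well, 5 members remained over both genotypes, and without the filter on low counts 10 were called, Igf2 and Igfbp2 among them. Between TdTOSX single positive and double negative cells the count went from 0 to 1 with limma, to 1 without both libraries that stand apart, and ran from 0 to 1 over the fits without 1 library. Genes called in that comparison were 284 in the reported fit, 718 with limma, 982 with DESeq2, 1509 without both libraries that stand apart, 92 without the filter and 30 (without TdTOSX single positive Cdh2-cKO replicate 2) to 878 (without double negative wild type replicate 3) without 1 library. Requiring a log2 fold change of 2 left 39 of them, and 3709 of 9570 genes over both genotypes. DESeq2 called 134, 522, 1 and 26 genes between genotypes in TdTOSX single positive, double negative, double positive and CD45 single positive cells, where edgeR called 1, 0, 0 and 0, and 30 genes for the difference between genotypes. Without both libraries that stand apart 68 genes were called in TdTOSX single positive cells. Without 1 library up to 89 were called there, without wild type replicate 2, and up to 604 in double negative cells, without wild type replicate 1. Direction changed for few of the values given. Igf1 in Cdh2-cKO, CD45- against CD45+, ran from -0.594 to 0.121 without 1 library. Igfbp3 between TdTOSX single positive and double negative cells was 0.27 with limma, 0.087 with the replicate block and -0.54 to 0.548 without 1 library. Between genotypes, without 1 library, Igf1r in TdTOSX single positive cells ran from -0.004 to 0.644, Igfbp7 in double negative cells from -1.3 to 0.392 and Igfbp6 in CD45 single positive cells from -0.485 to 0.119. The causes were not tested. Of 30 pairs of libraries with the same replicate number within a genotype, 10 had a correlation of deviations over 0.1 (range -0.296 to 0.593). Only between TdTOSX single positive and double negative libraries did every pair pass it, and pairs of TdTOSX single positive and double positive libraries had 0.097 to 0.154. With number as a replicate block across all libraries no call of a member changed. With the 4 pairs of TdTOSX single positive and double negative libraries as the block, added after the data were seen, 1 member (Igf1) and 741 of 14071 genes were called. Double negative replicate 3 of both genotypes was left out of that fit.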
